A study of Mus musculus with 12 samples.

Results

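The 10 genes described here are tied to regulatory T cells (Treg cells), although several are also expressed by other cells. They were taken by name: Foxp3, Ikzf2, Ikzf4, Lrrc32, Gpr83, Izumo1r, Ebi3, Fgl2, Capg and Swap70. All 10 were found among the 19938 mouse genes of the table, each through 1 probe set that carried its symbol alone. They were followed on 12 arrays of donor CD4+ T cells sorted at 48 hr after transfer into mice treated with TCDD, Cl-BBQ or vehicle, with 4 arrays in each group. Spleen cells of C57Bl/6 donors, labelled with the division dye CFSE, had been injected into B6D2F1 hosts, in which donor T cells attack host tissue (graft-versus-host disease, GVHD). Each sorted cell carried so little dye that it had divided at least 2 times, and the source tissue was spleen and lymph node. TCDD hosts received 15 µg/kg once on day 0, Cl-BBQ hosts 2 mg/kg on days 0 and 1, and vehicle hosts the vehicle on days 0 and 1. The animals were bought at 10 to 12 weeks of age, and the mice were killed on day 2. The labels call the 4 arrays of a group biological replicates. TCDD is a dioxin, and both it and Cl-BBQ bind AhR, the aryl hydrocarbon receptor, which small molecules turn into an active transcription factor; dose and schedule differed between them, and TCDD also differed from vehicle in schedule.

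Treg cells restrain other T cells, and in GVHD donor Treg cells are known to limit the disease. Foxp3 is their lineage-defining transcription factor. Some Treg cells leave the thymus already committed, and others arise from conventional CD4+ cells in the periphery. The sort described in the labels took CD4+ cells by dye dilution and names no Treg gate, so each array averaged whatever Treg cells had divided with all the conventional cells that had. In such bulk RNA, fewer Treg cells and less RNA per Treg cell cannot be told apart.

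The values are log2 intensities, given for single arrays in replicate order and for groups as mean ± SD of 4 arrays. Array medians lay between 7.11 and 7.24. Of 5 known AhR target genes, all 5 rose with TCDD and 0 were called with Cl-BBQ, where 4 were higher at an unadjusted p under 0.05 in limma. Cyp1b1, a cytochrome P450 among them, averaged 9.85 ± 0.12 with TCDD and 7.49 ± 1.05 with Cl-BBQ, against 6.36 ± 0.14 with vehicle, and Cl-BBQ replicate 3, at 5.93, lay below every vehicle array. CD4 T cell markers were bright throughout: Cd4 lay between 12.29 and 12.55, and Cd3e, a chain of the T cell receptor complex, between 12.81 and 13.05. A gene was called at an adjusted p under 0.05 in limma (Benjamini-Hochberg over all 19938 genes).

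None of the 10 Treg genes was called with TCDD or with Cl-BBQ against vehicle, nor between the compounds. Over all genes, 1.24% were called for TCDD against vehicle (0.873% higher and 0.366% lower), 0.196% for Cl-BBQ against vehicle (0.145% higher and 0.0502% lower) and 0.015% for TCDD against Cl-BBQ. Against such shares, 0 of 10 is no result about the members. At an unadjusted p under 0.05, 2 members were lower with TCDD than with vehicle (8.69% of all genes, 4% lower and 4.69% higher). With Cl-BBQ, 2 members were lower (7.91% of all genes, 3.8% lower and 4.11% higher). Between TCDD and Cl-BBQ, 1 member was higher with TCDD (2.99% of all genes, 1.37% lower and 1.62% higher). The median log2 difference over the members was 0.012 for TCDD and −0.13 for Cl-BBQ against vehicle, beside 0.0042 and 0.011 over all genes. The members' differences ran from −0.39 to 0.15 with TCDD and from −0.33 to 0.093 with Cl-BBQ.

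**Figure D1:**
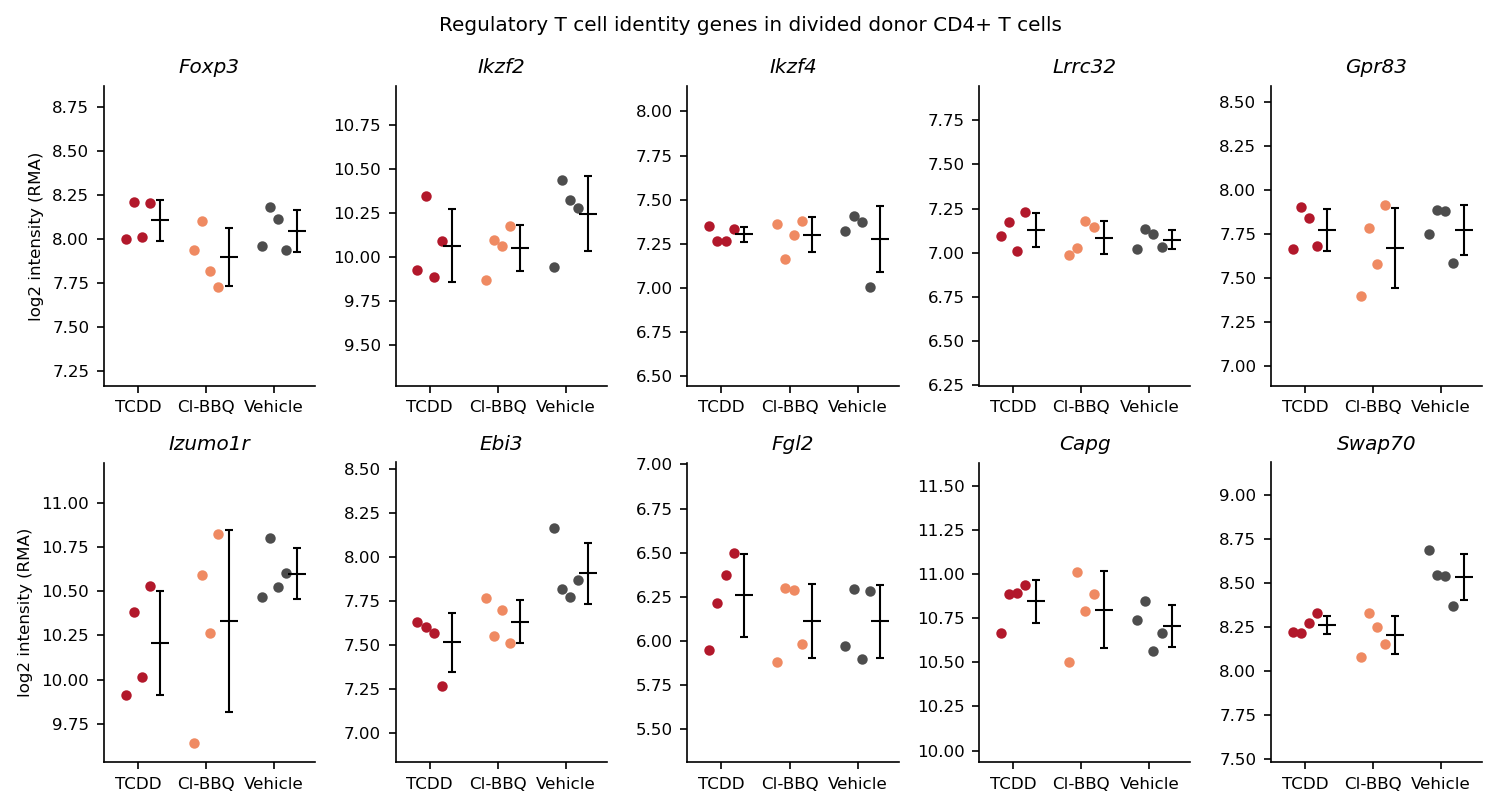
Log2 intensity (vertical axis, RMA values, every panel spanning the same range in log2 units) of the 10 genes on each array of the TCDD, Cl-BBQ and vehicle groups (dots, replicates 1 to 4 from left to right), with mean ± SD of 4 arrays (bars). Only in the panels of Ebi3 and Swap70 do the dots of both ligand groups lie wholly below those of vehicle.

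Foxp3 itself, on the X chromosome (GRCm38.p6 X, 7579676 to 7595243), was at 8.001, 8.21, 8.01 and 8.20 with TCDD. It was at 7.94, 8.10, 7.82 and 7.73 with Cl-BBQ, and at 7.96, 8.18, 8.11 and 7.94 with vehicle. The 3 groups overlapped. TCDD arrays averaged 8.11 ± 0.12, Cl-BBQ arrays 7.90 ± 0.16 and vehicle arrays 8.05 ± 0.12. Against vehicle, the log2 difference was 0.058 with TCDD (95% interval −0.13 to 0.25; adjusted p = 0.939) and −0.15 with Cl-BBQ (−0.34 to 0.043; adjusted p = 0.721). With an array left out, the TCDD value lay between 0.021 (vehicle replicate 4) and 0.10 (vehicle replicate 2), and the Cl-BBQ value between −0.22 (Cl-BBQ replicate 2) and −0.093 (Cl-BBQ replicate 4). As fold changes, the TCDD interval reached from 0.911 to 1.19 times vehicle and the Cl-BBQ interval from 0.788 to 1.03 times. With its own standard error, Foxp3 would have passed the threshold from an observed 1.31-fold difference with TCDD and from 1.39-fold with Cl-BBQ. These are cuts for the observed difference and not the smallest true change that the test could find. Smaller true changes, and some of this size, could have been missed.

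The largest difference of Foxp3 lay between the compounds, at their own doses. It was 0.21 log2 higher in TCDD than in Cl-BBQ arrays (interval 0.015 to 0.40), with an unadjusted p of 0.0361 and an adjusted p of 1.00 in limma. The highest Cl-BBQ array, at 8.10, overlapped the TCDD arrays. Same-numbered TCDD and Cl-BBQ arrays deviated together in replicates 1 and 4 (r = 0.606 and 0.365). They did so less in replicates 2 and 3 (r = 0.113 and 0.157). With the replicate number as a block over these 8 arrays, 53 genes were called. The same arrays gave 0 calls without the block, and the main fit gave 3. The 53 genes held 0 members, and Foxp3 had an adjusted p of 0.484 in that fit in limma.

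Ikzf2 encodes Helios, a zinc finger protein of the Ikaros family found in many Treg cells and also in activated T cells. It was at 9.93, 10.35, 9.89 and 10.09 with TCDD, at 9.87, 10.10, 10.06 and 10.18 with Cl-BBQ, and at 9.94, 10.44, 10.33 and 10.28 with vehicle. Apart from vehicle replicate 1, every vehicle array was above all Cl-BBQ arrays, and the groups overlapped. The log2 difference from vehicle was −0.18 with TCDD (interval −0.42 to 0.058; adjusted p = 0.742) and −0.19 with Cl-BBQ (interval −0.43 to 0.045; adjusted p = 0.709). Without vehicle replicate 1 these were −0.28 and −0.29, and without vehicle replicate 2 −0.12 and −0.13. Ikzf4 encodes Eos, an Ikaros family partner of Foxp3 in gene repression. It averaged 7.30 ± 0.044 with TCDD and 7.30 ± 0.099 with Cl-BBQ, against 7.28 ± 0.19 with vehicle. Its group means spanned 0.026 log2, less than the SD of any group, and vehicle replicate 4 was its lowest array at 7.00.

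Of the related Ikaros genes, Ikzf1 (Ikaros) lay between 12.28 and 12.43 on all arrays and was not called. Ikzf3 (Aiolos) was at 12.00 ± 0.11 with TCDD and 11.97 ± 0.20 with Cl-BBQ, against 11.68 ± 0.074 with vehicle. Its log2 difference was 0.33 for TCDD (adjusted p = 0.0634) and 0.29 for Cl-BBQ (adjusted p = 0.209), short of the threshold in limma. Both Ikaros relatives, like Nrp1 further on, were singled out after their values were seen.

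Lrrc32 encodes GARP, which holds latent TGF-β on the Treg surface. It was at 7.10, 7.17, 7.01 and 7.23 with TCDD, at 6.99, 7.03, 7.18 and 7.14 with Cl-BBQ, and at 7.02, 7.13, 7.10 and 7.03 with vehicle. The groups overlapped. Its intervals were the narrowest of the 10: the difference from vehicle was 0.053 with TCDD (−0.091 to 0.20) and 0.013 with Cl-BBQ (−0.13 to 0.16), and the second changed sign after median centring or quantile normalization. Its best-known cargo, Tgfb1, was not called either, at 9.38 ± 0.094 with TCDD and 9.45 ± 0.16 with Cl-BBQ, against 9.47 ± 0.087 with vehicle. Another TGF-β gene did change. Tgfb3 was at 7.70, 8.06, 8.10 and 8.27 with TCDD, at 7.50, 7.97, 7.30 and 7.56 with Cl-BBQ, and at 6.93, 6.99, 6.83 and 6.91 with vehicle. It rose 2.18-fold with TCDD (adjusted p = 0.000178) and 1.59-fold with Cl-BBQ (adjusted p = 0.0422) in limma, and the second call was kept only without Cl-BBQ replicate 1 or 3 among the 8 fits that left out a replicate (adjusted p up to 0.146).

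The receptor genes Gpr83 and Izumo1r are neighbours on chromosome 9, 15024 bases apart with 0 annotated genes between them. Gpr83 encodes an orphan G protein-coupled receptor enriched in mouse Treg cells. It averaged 7.77 ± 0.12 with TCDD and 7.67 ± 0.23 with Cl-BBQ, against 7.77 ± 0.14 with vehicle. Its difference from vehicle was −0.0017 with TCDD (interval −0.23 to 0.22), near 0, and its sign turned with the scaling. The Cl-BBQ difference was −0.11 (interval −0.33 to 0.12), and −0.014 without Cl-BBQ replicate 1 or −0.19 without Cl-BBQ replicate 4.

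Izumo1r, also called folate receptor 4, is a surface marker of mouse Treg cells and of anergic CD4+ cells. It was at 9.91, 10.38, 10.01 and 10.53 with TCDD, at 9.64, 10.59, 10.27 and 10.83 with Cl-BBQ, and at 10.47, 10.80, 10.53 and 10.60 with vehicle. It had the widest spread of the 10 among Cl-BBQ arrays, and the ligand groups overlapped vehicle through their highest arrays. The log2 difference was −0.39 with TCDD (interval −0.81 to 0.021; adjusted p = 0.621) and −0.27 with Cl-BBQ (interval −0.68 to 0.14; adjusted p = 0.774). The Cl-BBQ value turned on single arrays: it was −0.040 without Cl-BBQ replicate 1 and −0.43 without Cl-BBQ replicate 4. With all arrays in the fit, only an observed difference of at least 1.78-fold with TCDD or 2.02-fold with Cl-BBQ would have been called.

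Fgl2 encodes a fibrinogen-like protein that Treg cells secrete and that dampens antigen-presenting cells. It was at 5.95, 6.22, 6.37 and 6.50 with TCDD, at 5.88, 6.30, 6.29 and 5.98 with Cl-BBQ, and at 5.97, 6.29, 5.90 and 6.28 with vehicle. TCDD replicates 3 and 4 lay above every other array, and the remaining arrays of the 3 groups overlapped. The log2 difference with TCDD was 0.15 (interval −0.12 to 0.42; adjusted p = 0.846), and 0.069 without TCDD replicate 4 or 0.25 without TCDD replicate 1. It was also the dimmest member, and the filter on dim genes tried as an alternative removed it alone. Capg encodes an actin filament capping protein that is higher in Treg and activated cells than in naive cells. It averaged 10.85 ± 0.12 with TCDD and 10.80 ± 0.22 with Cl-BBQ, against 10.71 ± 0.12 with vehicle. Its difference was 0.14 with TCDD (interval −0.063 to 0.34; adjusted p = 0.777) and 0.093 with Cl-BBQ (interval −0.11 to 0.30; adjusted p = 0.846). The second was 0.021 without Cl-BBQ replicate 2 and 0.19 without Cl-BBQ replicate 1.

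Ebi3 and Swap70 were the members whose ligand-treated arrays did not overlap vehicle. Such separation was seen for 2 of 10 members in each comparison with vehicle, beside 5.8% of all genes for TCDD (2.65% lower) and 3.85% for Cl-BBQ (1.58% lower). Between TCDD and Cl-BBQ it was seen for 0 of 10, beside 2.04% of all genes (0.797% lower). The comparisons with vehicle use the same 4 vehicle arrays, so they are not independent of each other.

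Ebi3 encodes a subunit shared by the cytokines interleukin-27 and interleukin-35 (a cytokine known from Treg cells), and it is also expressed by B cells and antigen-presenting cells. It was at 7.63, 7.60, 7.57 and 7.27 with TCDD. With Cl-BBQ it was at 7.77, 7.55, 7.70 and 7.51, and with vehicle at 8.16, 7.82, 7.78 and 7.87. The highest ligand-treated array, Cl-BBQ replicate 1, was at 7.77 and the lowest vehicle array at 7.78, so the separation was narrow. The log2 difference was −0.39 with TCDD (interval −0.60 to −0.18), which is 1.31-fold lower and had an adjusted p of 0.0871. With Cl-BBQ it was −0.27 (interval −0.49 to −0.061), 1.21-fold lower with an adjusted p of 0.478. Neither passed. With array weights, an alternative fit that trusts steadier arrays more, Ebi3 was called for TCDD (adjusted p = 0.0351 in limma). Of 18 alternatives, 2 called it for TCDD and 0 for Cl-BBQ. With an array left out, the TCDD difference lay between −0.43 and −0.30 and the Cl-BBQ difference between −0.32 and −0.19. Both were smallest in size without vehicle replicate 1 (adjusted p = 0.27 and 0.864). Il12a and Il27, which encode the partner subunits of Ebi3 in these cytokines, were not called. Il12a was at 6.71 ± 0.14 with TCDD and 6.67 ± 0.059 with Cl-BBQ, against 6.62 ± 0.071 with vehicle, and Il27 at 8.68 ± 0.17 with TCDD and 8.64 ± 0.14 with Cl-BBQ, against 8.55 ± 0.098 with vehicle.

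Swap70 encodes a protein that links phosphoinositide signals to Rac and the actin skeleton, best known from B cells and mast cells. It was at 8.22, 8.22, 8.27 and 8.33 with TCDD. With Cl-BBQ it was at 8.08, 8.33, 8.25 and 8.15, and with vehicle at 8.68, 8.54, 8.54 and 8.37. All ligand-treated arrays lay below the lowest vehicle array. TCDD arrays averaged 8.26 ± 0.053 and Cl-BBQ arrays 8.20 ± 0.11, against 8.53 ± 0.13 with vehicle. The log2 difference was −0.27 with TCDD (interval −0.44 to −0.10; 1.21-fold lower; adjusted p = 0.16) and −0.33 with Cl-BBQ (interval −0.50 to −0.16; 1.26-fold lower; adjusted p = 0.129). With array weights, Swap70 was called for TCDD (adjusted p = 0.0462 in limma). Of 18 alternatives, 1 called it for TCDD and 0 for Cl-BBQ. With an array left out, the TCDD difference lay between −0.33 and −0.22 and the Cl-BBQ difference between −0.38 and −0.28. Both were smallest in size without vehicle replicate 1 (adjusted p = 0.441 and 0.377). The compounds differed by 0.058 in Swap70 (interval −0.11 to 0.23) and by −0.12 in Ebi3 (interval −0.33 to 0.096).

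With both ligand groups set as one against vehicle in the same fit, a comparison added after the values above were seen, Swap70 was called lower in limma (log2 difference −0.30, interval −0.45 to −0.15; adjusted p = 0.0423; lower in 8 of 8 arrays). In that comparison 1.23% of all genes were called, 0.411% lower, and 1.67% did not overlap. The call was kept in 5 of 16 alternatives and lost when any 1 TCDD array, the third or the fourth Cl-BBQ array, or any vehicle array but the fourth was left out, and after median centring or quantile normalization, with adjusted p from 0.0253 to 0.206. Ebi3 had an adjusted p of 0.0918 there, and the other 8 members had adjusted p of at least 0.544.

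A few markers of other cells that express Ebi3 and Swap70 fell with TCDD, while most were not called and lay on both sides of 0. Their lists were dim on average, near 6.51, the cut of the filter on dim genes. The mean level per array lay between 6.45 and 6.69 for B and plasma cell markers. For myeloid and dendritic cell markers it lay between 6.44 and 6.62. Among genes so dim, the split around 0 cannot tell whether such cells became fewer. Among B and plasma cell markers, Cd22 (7.11 ± 0.14 with TCDD, against 8.07 ± 0.40 with vehicle; 1.94-fold lower; adjusted p = 0.00364) and Bank1 (1.40-fold lower; adjusted p = 0.0392) fell with TCDD, and the other 10 of 12 genes were not called. Of the 12, 6 lay below 0 and 6 above (median log2 difference −0.0014, highest 0.23), and 1 was higher at an unadjusted p under 0.05. The Bank1 call was kept only without vehicle replicate 1 or 3 among 8 fits, with adjusted p up to 0.161. The summed intensity of the list, as log2, lay between 10.46 and 10.56 with TCDD and between 10.43 and 10.56 with Cl-BBQ, against 10.49 to 10.72 with vehicle. In the myeloid and dendritic cell list, Cd74, the MHC class II invariant chain, was the only one of 19 called with TCDD. It was 1.35-fold lower (adjusted p = 0.0297 in limma). The call was kept only without TCDD replicate 2 or vehicle replicate 3 among 8 fits, with adjusted p up to 0.125. Of the 19, 10 lay below 0 and 9 above (median −0.011, lowest −0.88, highest 0.18), and the gene at −0.88 was not called. At an unadjusted p under 0.05 in limma, 2 were lower and 1 higher. The list's sums lay between 10.87 and 10.995 with TCDD and between 10.92 and 10.98 with Cl-BBQ, against 10.98 to 11.13 with vehicle. With Cl-BBQ no gene of either list was called. Log2 differences then ran from −0.62 to 0.12 in the B and plasma cell list and from −0.91 to 0.23 in the myeloid list. At an unadjusted p under 0.05 in limma, 2 genes were lower and 0 higher in the first list. In the second, 2 were lower and 3 higher. No array value is 0 on this scale and the table has no detection call; the B cell gene Ms4a1 lay between 4.71 and 5.29 and the macrophage gene Lyz2 between 5.38 and 6.06. The part of such cells in the Ebi3 and Swap70 values was not tested.

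**Figure D2:**
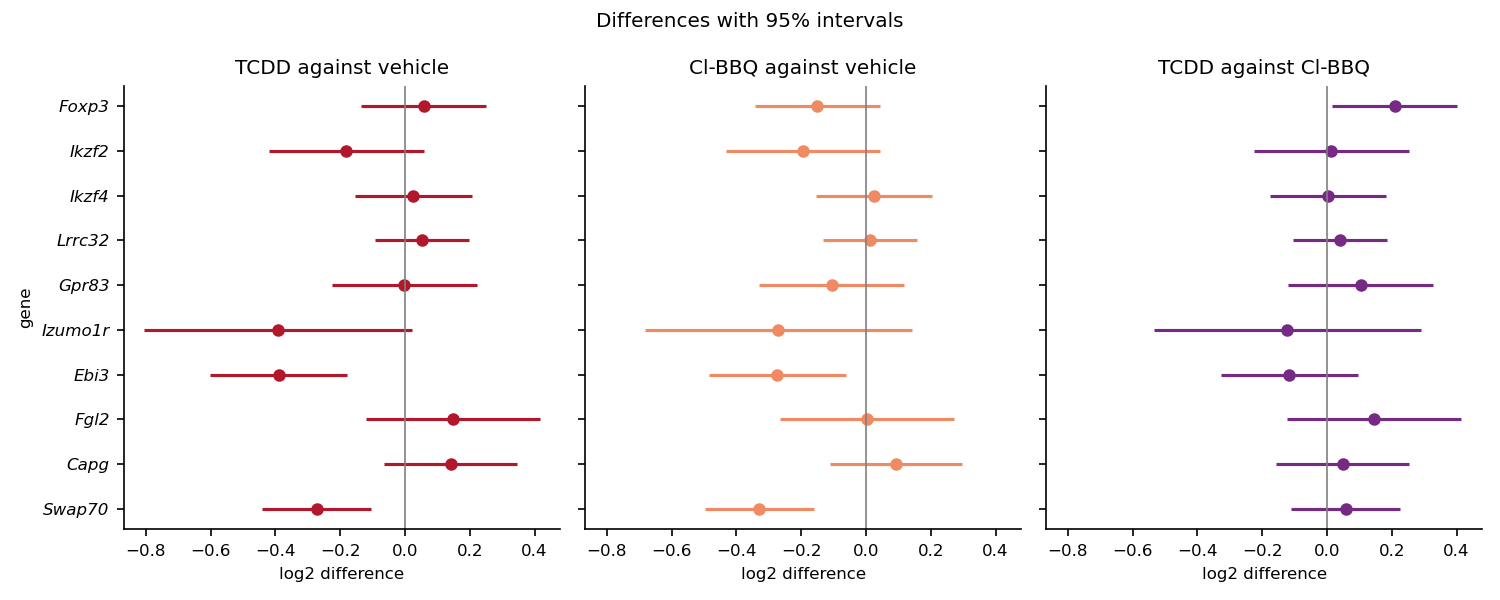
Log2 difference (horizontal axis) of each of the 10 genes (vertical axis) in the 3 comparisons, with the 95% interval of the moderated fit (lines). The intervals of Ebi3 and Swap70 lie below 0 for both ligands against vehicle, and that of Foxp3 lies above 0 between the compounds, before any correction for the number of genes.

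AhR and its partner bind the core motif GCGTG. The promoter windows (RefSeq, GRCm38.p6, from 250 bases before to 50 bases after a start site, 300 bases) of Foxp3, Swap70 and Ebi3 are shown because Foxp3 defines the cell type and the other members stood apart from vehicle. The motif, on either strand (GCGTG or CACGC), is in capitals.
Foxp3, first start site, chrX:7579426-7579725, plus strand: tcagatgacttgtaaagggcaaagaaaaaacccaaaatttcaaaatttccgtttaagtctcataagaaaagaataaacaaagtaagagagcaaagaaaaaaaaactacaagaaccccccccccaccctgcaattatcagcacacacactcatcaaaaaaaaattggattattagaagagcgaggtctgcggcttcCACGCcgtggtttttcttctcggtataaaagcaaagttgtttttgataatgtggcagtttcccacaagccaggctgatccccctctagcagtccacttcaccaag
Foxp3, further start site, chrX:7580233-7580532, plus strand: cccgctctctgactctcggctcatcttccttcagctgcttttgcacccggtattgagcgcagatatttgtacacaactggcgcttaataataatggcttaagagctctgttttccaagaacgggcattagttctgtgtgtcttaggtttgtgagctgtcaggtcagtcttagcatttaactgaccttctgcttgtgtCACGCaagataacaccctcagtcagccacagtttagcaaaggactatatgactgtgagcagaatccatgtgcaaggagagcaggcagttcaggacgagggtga
Swap70, chr7:110221453-110221752, plus strand: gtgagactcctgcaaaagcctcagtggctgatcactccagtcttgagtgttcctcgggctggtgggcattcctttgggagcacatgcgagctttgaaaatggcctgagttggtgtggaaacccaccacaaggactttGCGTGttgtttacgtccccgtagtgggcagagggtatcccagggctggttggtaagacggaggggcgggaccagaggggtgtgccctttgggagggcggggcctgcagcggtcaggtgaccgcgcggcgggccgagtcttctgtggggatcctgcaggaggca
Ebi3, chr17:55952373-55952672, plus strand: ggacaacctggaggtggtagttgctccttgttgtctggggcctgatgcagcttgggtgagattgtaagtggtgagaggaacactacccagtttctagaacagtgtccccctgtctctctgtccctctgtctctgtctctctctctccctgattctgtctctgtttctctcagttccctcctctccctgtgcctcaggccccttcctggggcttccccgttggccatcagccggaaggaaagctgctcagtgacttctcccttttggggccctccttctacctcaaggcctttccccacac

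On their own chromosomes, 7 of the 10 members had windows, 8 in all. Of these windows, 5 held the motif: those of Foxp3, Swap70, Gpr83 and Fgl2, with 1 match each. Of all 32851 windows, taken without such a limit on the chromosome, 32.4% held it. In Swap70 the match began 113 bases before the start site and in Foxp3 55 and 53 bases before the start sites. No match was found in the windows of Ebi3, Capg and Izumo1r, which says only that these letters are absent there. A match is a description of the sequence and not evidence of binding.

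How the members varied together was read within groups. Over the 12 arrays with group means removed, 32 of the 45 pairs of members correlated above 0, with a median Pearson r of 0.25. Before correction, 6 pairs had a p under 0.05 in an exact permutation test of arrays within groups (two-sided), and 0 of 45 did after Benjamini-Hochberg adjustment. The permutations shuffled each group on its own, as if all 12 arrays were independent, so they leave out the deviations that same-numbered TCDD and Cl-BBQ arrays shared. The highest correlation was that of Izumo1r with Capg (r = 0.83, Spearman rho = 0.78; p = 0.00796 and 0.00883; adjusted p = 0.119 and 0.158, permutation test), and it was 0.58 without the 2 arrays farthest from the median of Izumo1r. Izumo1r and Ikzf2 had r = 0.68 and rho = 0.71 (p = 0.00499 and 0.014; adjusted p = 0.119 and 0.158, permutation test; r = 0.70 without the 2 arrays farthest from the median of Ikzf2). Izumo1r and its neighbour Gpr83 had r = 0.70 and rho = 0.60 (p = 0.0459 and 0.0932; adjusted p = 0.345 and 0.388, permutation test; r = 0.51 without the 2 arrays farthest from the median of Gpr83).

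Ebi3 ran the other way, with r = −0.66 and rho = −0.71 to Izumo1r (p = 0.00687 and 0.0122; adjusted p = 0.119 and 0.158, permutation test; r = −0.62 without the 2 arrays farthest from the median of Izumo1r). Single arrays stood out. Cl-BBQ replicate 1 was the lowest of its group in 7 of the 10 genes and the highest in Ebi3, and it had the lowest array weight of the 12 (0.432), the reliability that limma estimates for an array. Vehicle replicate 2 was the highest of its group in 8 of the 10.

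**Figure D3:**
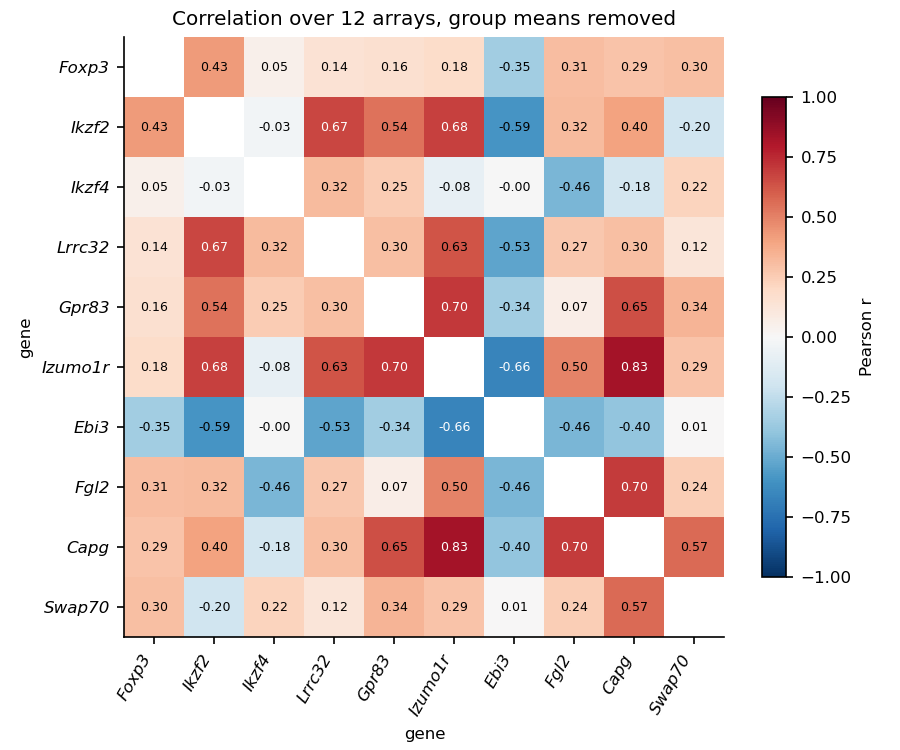
Pearson correlation between the 10 genes (both axes) over 12 arrays after each gene's group means were removed; the colour and the printed number give r. Izumo1r and Capg are highest at 0.83, and Ebi3 is below 0 with 8 of the other 9 genes.

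The correlation of Foxp3 with the other 9 members over the 12 arrays as deposited ran from −0.20 for Ebi3 to 0.39 for Ikzf2, which ranked 1126 of 19937 genes. The genes most like Foxp3 by Pearson r over the 12 arrays were Cyp2t4 (r = 0.88), Adgrg6 (r = 0.83) and H2-Ab1 (r = 0.82), the highest of 19937 and given as a description. Cyp2t4 lay between 5.62 and 5.84, and Adgrg6, an adhesion G protein-coupled receptor, between 5.64 and 5.97. Both were dim, below 6.51, the cut of the filter on dim genes, on all arrays. H2-Ab1, an MHC class II chain and 1 of the 19 genes of the myeloid and dendritic cell list, lay between 6.70 and 7.14.

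Other genes of Treg cells were taken from lists. Of 22 measured surface and effector genes tied to Treg cells, 3 rose, 1 fell and 18 were not called with TCDD, where the median log2 difference was 0.016 (0.0042 over all genes). Il10, a suppressive cytokine, was at 9.57 ± 0.26 with TCDD, against 8.49 ± 0.24 with vehicle, and rose 2.11-fold (adjusted p = 0.00797 in limma). Itgae, the integrin chain CD103, was at 7.97 ± 0.41 with TCDD, against 7.14 ± 0.16 with vehicle, a rise of 1.78-fold (adjusted p = 0.00606). Ctla4, an inhibitory receptor carried by Treg and activated cells, rose 1.26-fold, to 12.81 ± 0.055 with TCDD, against 12.47 ± 0.11 with vehicle (adjusted p = 0.00192). Cd83, an activation marker also found on B and dendritic cells, fell 1.44-fold (7.61 ± 0.17 with TCDD, against 8.14 ± 0.12 with vehicle; adjusted p = 0.00569).

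With Cl-BBQ, 0 of these 22 genes were called, and 3 were higher and 4 lower at an unadjusted p under 0.05. Nrp1, a surface marker of thymus-derived Treg cells, was at 7.61, 7.80, 7.97 and 7.88 with TCDD, at 7.45, 7.85, 7.74 and 7.60 with Cl-BBQ, and at 8.05, 8.50, 7.90 and 8.74 with vehicle. Its log2 difference was −0.48 with TCDD (interval −0.80 to −0.16; adjusted p = 0.21) and −0.64 with Cl-BBQ (interval −0.96 to −0.32; adjusted p = 0.126), so it was not called, and vehicle replicates 2 and 4 were the high arrays. Those 2 arrays were also the highest of the 12 for the B cell genes Cd22 (8.26 and 8.52) and Bank1 (7.83 and 7.78). They were so for Cd74 as well (7.40 and 7.35). They were not for the B cell genes Ms4a1 and Cd79a. Ms4a1 was at 5.29 and 4.83 on them, the second the next to lowest of the 12. Cd79a was at 6.63 and 6.48, with its highest array in Cl-BBQ replicate 4. Ms4a1 lay below 6.51, the cut of the filter on dim genes, on all arrays, and Cd79a lay near it. All these genes were picked after their values were seen. The part of B cells, dendritic cells or other cells in the Nrp1 and Cd83 values was not tested.

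Among 26 regulators and partners of Foxp3, 2 rose, 1 fell and 23 were not called with TCDD (median log2 difference −0.017), and 0 were called with Cl-BBQ. Gata3, a transcription factor of Th2 cells that also supports Foxp3 in Treg cells, was at 9.91, 10.03, 10.21 and 10.04 with TCDD, against 9.65, 9.73, 9.54 and 9.68 with vehicle, without overlap (1.32-fold; adjusted p = 0.0159). Id2, an inhibitor of E proteins, rose 1.41-fold (adjusted p = 0.0332). Rel, the NF-κB subunit c-Rel, which is needed to start Foxp3 transcription, fell 1.17-fold (10.82 ± 0.033 with TCDD, against 11.04 ± 0.032 with vehicle; adjusted p = 0.0282). Of the 8 fits without a replicate, Gata3 kept its call in 3 (without TCDD replicate 1, vehicle replicate 2 or vehicle replicate 4), Id2 in 2 (TCDD replicate 1 or vehicle replicate 2) and Rel in 1 (vehicle replicate 2), with adjusted p up to 0.0917, 0.143 and 0.12 in that order.

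Of 9 measured genes that are low in Treg cells, 1 rose and 2 fell with TCDD, and 0 were called with Cl-BBQ. Dapl1, high in naive T cells, fell 1.84-fold (11.06 ± 0.17 with TCDD, against 11.94 ± 0.072 with vehicle; adjusted p = 0.000599). Il2, the cytokine that Foxp3 represses, fell 1.40-fold (7.01 ± 0.20 with TCDD, against 7.50 ± 0.12 with vehicle; adjusted p = 0.0415). It kept its call in 1 of 8 fits without a replicate, with adjusted p up to 0.157. Pde3b, a phosphodiesterase gene that Foxp3 represses, rose 1.21-fold (11.38 ± 0.085 with TCDD, against 11.10 ± 0.043 with vehicle; adjusted p = 0.00957). The calls in this list ran in both directions. The Il2 call was kept when TCDD replicate 4 was left out, and the Pde3b call was lost without TCDD replicate 3 (adjusted p = 0.0537).

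Of 27 measured family members and partners of the 10 genes, 2 were called, both higher with each ligand: Tgfb3, described above, and Il12rb2, a receptor chain for interleukin-12 that can also take part in interleukin-35 reception. Il12rb2 was at 10.69, 10.67, 10.95 and 10.89 with TCDD, at 11.01, 10.11, 10.25 and 9.85 with Cl-BBQ, and at 9.54, 9.01, 8.93 and 9.15 with vehicle. Neither ligand group overlapped vehicle. It rose 3.13-fold with TCDD (adjusted p = 0.000187) and 2.22-fold with Cl-BBQ (adjusted p = 0.0243). The Cl-BBQ call was kept without Cl-BBQ replicate 1, 3 or 4 or vehicle replicate 1 and lost in the other 4 fits without a replicate (adjusted p up to 0.106). Between TCDD and Cl-BBQ, no gene of these 4 lists was called; at an unadjusted p under 0.05, 5 were higher and 1 lower.

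**Figure D4:**
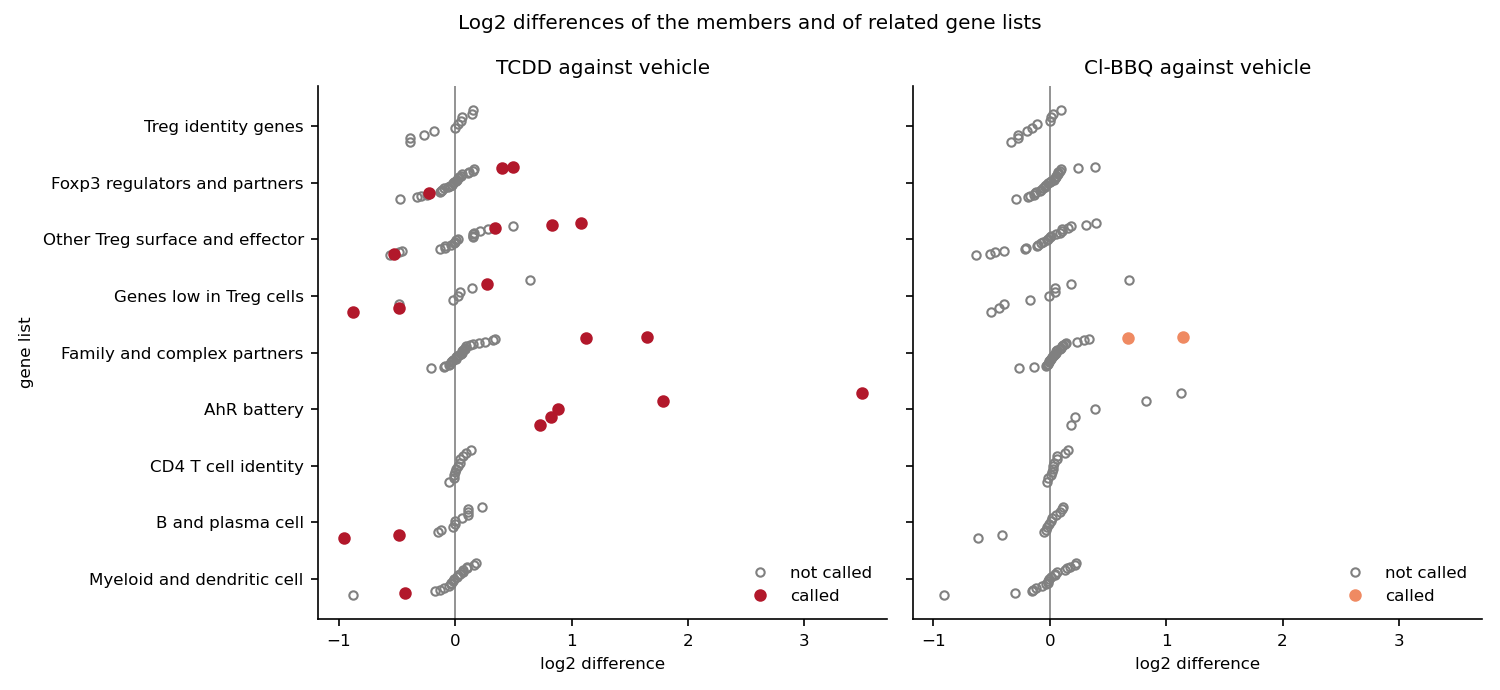
Log2 difference from vehicle (horizontal axis) of each gene in 9 gene lists (vertical axis) for TCDD (left) and Cl-BBQ (right); filled dots were called and open dots were not. The Treg identity genes hold no filled dot, which is no result about them. Of all genes, 1.24% were called with TCDD and 0.196% with Cl-BBQ. The lists of Treg surface and effector genes and of partners hold filled dots with TCDD. The list of family and complex partners holds them with Cl-BBQ too.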

How the data were processed

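RNA of 12 samples of sorted CD4+ T cells was read on 1-colour Affymetrix arrays. The deposited table holds log2 values that the authors made with RMA, per the submitters' processing notes; neither its version nor its library file was given in the sources used here, and the log2 scale was read from the values (2.49 to 14.2). The labelling protocol describes a kit for 3′ arrays, whereas the probe annotation is that of a whole-transcript array, a difference that was not settled. The table holds no detection calls, so dim genes could not be marked as present or absent. The number of arrays limits the precision.

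Of 35556 probe sets, 21789 carried 1 gene symbol, 1621 several and 12146 were not listed in the annotation. Of the first kind, 21698 were matched to RefSeq by gene ID and 0 symbols changed. Each gene took its single-symbol probe set with the highest mean, which gave 19938 genes. No values were normalized again. limma 3.58.1 in R 4.3.3 fitted all 12 arrays with 1 coefficient per group, moderated variances with an intensity trend and 9 residual degrees of freedom. Tests were two-sided with Benjamini-Hochberg adjustment over all genes, and the fit was tested on simulated data. Correlations between members were tested by permuting arrays within groups over all 13824 arrangements.

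Named are all 10 members, up to 4 called genes per list and comparison by lowest adjusted p, and the 3 genes most correlated with Foxp3; the other list genes were named, after their values were seen, as relatives of a member or as cell type markers. No member was called in the 3 main comparisons, so none but Foxp3 was ranked for likeness. The members and lists were chosen with earlier results of these data known. Some genes of the lists are not reported here. The CD4 T cell (11 genes), CD8 T cell (2) and neutrophil and platelet (11) lists held 0 calls in each comparison. Deviations from the group means correlated between same-numbered TCDD and Cl-BBQ arrays with r = 0.606, 0.113, 0.157 and 0.365 (replicates 1 to 4). For numbers shared with vehicle arrays, r ran from −0.134 to 0.182, a range that holds the values of replicates 2 and 3. Differently numbered arrays were not compared. The main fit used no pairs, and the replicate number was a block only in alternatives. Alternatives were a fit of 2 groups alone, no trend, robust variances, array weights, quantile normalization, median centring, removal of dim genes, other probe set rules, a replicate block and each array left out.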

Additional observations from a re-analysis of the deposited data

Results flagged for a closer look

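Ebi3 in TCDD replicate 4, at 7.27, lay far below the other 3 TCDD arrays (7.57 to 7.63). Its distance to the nearest of them, as a share of the group's range, only just passed the critical value of Dixon's test for 4 samples. Chance gives about 1 in 20 such groups. The test was run on each of the 10 genes in each of the 3 groups, and only this group was flagged.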

How the results depend on the processing

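None of the 10 genes was called with Cl-BBQ against vehicle or between the compounds under any alternative run. For TCDD against vehicle, array weights called 2 of them (Ebi3, adjusted p = 0.0351, and Swap70, adjusted p = 0.0462) and the replicate block 1 (Ebi3, adjusted p = 0.0176), while the 8 fits without a replicate called 0. Vehicle arrays share only a number with the others, and the cause of these moves was not tested. Over all genes, 247 calls for TCDD against vehicle became 391 with array weights, 160 with median centring, 397 with the replicate block and 150 to 227 without a replicate (150 without TCDD replicate 3). For Cl-BBQ against vehicle, 39 calls became 11 in a fit of the 2 groups alone, 18 with no trend, 71 with quantile normalization, 8 with median centring, 0 when each probe set was tested alone, 111 with the replicate block and 3 to 61 without a replicate (3 without Cl-BBQ replicate 2, 4 without vehicle replicate 4, 9 without vehicle replicate 1, 16 without Cl-BBQ replicate 4 and 61 without Cl-BBQ replicate 1). For TCDD against Cl-BBQ, 3 calls became 0 in a fit of the 2 groups alone, with no trend, with quantile normalization and with every probe set, 9 with array weights, 5 with the replicate block over all arrays, 53 with the replicate block over these arrays alone and 0 to 7 without a replicate.

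For both ligand groups against vehicle, 246 calls became 395 with the replicate block, 143 with median centring and 154 to 319 without a replicate. The called members there numbered 2 with the replicate block (Ebi3, adjusted p = 0.0199, and Swap70, adjusted p = 0.0440), 0 with median centring, 0 with quantile normalization and 0 to 2 without a replicate. Signs turned for differences near 0, none of them called. With TCDD against vehicle, Gpr83 was at 0.028 with array weights, 0.016 with quantile normalization, 0.0078 with median centring and −0.065 to 0.036 without a replicate, and Ikzf4 at −0.065 to 0.070 without a replicate. With Cl-BBQ against vehicle, Ikzf4 was at −0.0018 with array weights and −0.067 to 0.070 without a replicate, Fgl2 at −0.0071 with quantile normalization, −0.012 with median centring and −0.069 to 0.080 without a replicate, and Lrrc32 at −0.0062, −0.0022 and −0.020 to 0.045 in the same order. Between the compounds, the ranges without a replicate were −0.044 to 0.029 for Ikzf4, −0.081 to 0.071 for Ikzf2, −0.051 to 0.12 for Capg and −0.35 to 0.043 for Izumo1r, and in the comparison of both ligand groups −0.066 to 0.069 for Ikzf4. The median correlation between members, 0.25, was 0.22 with Spearman's rho, 0.12 without the 2 farthest arrays and 0.22 with group means kept.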
